A study of Mus musculus with 2 samples.

Results

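The respiratory chain subunit genes were taken by symbol from the protein-coding genes on chromosomes 1 to 19. Complex I was read from Ndufa, Ndufb, Ndufc, Ndufs and Ndufv symbols with a digit, complex II from Sdha to Sdhd, complex III from Uqcr symbols and Cyc1, complex IV from the Cox4i, Cox5, Cox6, Cox7 and Cox8 symbols, and complex V from Atp5 symbols. This rule found 85 of 20665 genes, of which 38 belong to complex I, 4 to complex II, 9 to complex III, 17 to complex IV and 17 to complex V. The family members on the X chromosome are outside the rule: Ndufb11 and Cox7b had gene-end peaks in both lists, with folds of 5.17 and 4.16 and of 6.50 and 4.99, and Ndufa1 in list 1 alone.

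The genes were read in ChIP-seq peak lists for H3R17me2a, histone H3 asymmetrically dimethylated at an arginine by the methyltransferase Carm1. Both samples came from wild-type mouse heart at 21 days after birth and form 1 group with no treatment, no other genotype and no control library among the files used here. The titles name carm1 although the genotype label reads wild type, the source label names cardiac fibroblasts although tissue and protocol name homogenised frozen heart, and the labels do not say whether the animals differed. Of the cardiomyocyte markers 6 of 7 carried a gene-end peak in both lists (all but Ryr2), of the fibroblast markers 0 of 6, of the endothelial markers 0 of 4 and of the leukocyte markers 1 of 4 (Cd68). Col1a1, Col1a2, Pdgfra, Dcn, Tcf21 and Postn, the defining markers of the fibroblast label, thus had no such peak. The series design text calls the hearts neonatal, which differs from the age label.

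The respiratory chain passes electrons from NADH (complex I) and succinate (complex II) through complex III and cytochrome c to oxygen at complex IV, and complex V makes ATP from the proton gradient that this builds. Its subunits come from nuclear genes on many chromosomes and from the mitochondrial genome, so their output has to be matched. The heart depends on it for most of its ATP, and cardiac mitochondria mature after birth. Some complex IV subunits exist as separate genes for muscle and for most other tissues, and the factors NRF1, GABP and the ERR nuclear receptors are known regulators of many of the nuclear genes.

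Before the values, promoter sequence is shown for the isoform genes on which the comparison of muscle and other isoforms turns. Each line gives the 120 bases before the RefSeq start in mm10 (GRCm38.p6), 5′ to 3′ on the gene's strand, with capitals marking any of 7 searched motifs. Cox6a2 has no entry in the promoter table.
Cox7a1, chr7:30184051-30184170, plus strand: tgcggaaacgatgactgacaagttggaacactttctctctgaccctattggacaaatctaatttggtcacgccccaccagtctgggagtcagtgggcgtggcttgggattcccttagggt
Cox7a2, chr9:79759854-79759973, minus strand: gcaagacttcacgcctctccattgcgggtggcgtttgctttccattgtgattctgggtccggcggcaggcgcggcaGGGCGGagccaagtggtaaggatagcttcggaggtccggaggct
Cox8b, chr7:140900447-140900566, minus strand: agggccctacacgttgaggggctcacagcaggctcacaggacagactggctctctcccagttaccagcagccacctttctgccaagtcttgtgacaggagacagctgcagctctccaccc
Cox8a, chr19:7217617-7217736, minus strand: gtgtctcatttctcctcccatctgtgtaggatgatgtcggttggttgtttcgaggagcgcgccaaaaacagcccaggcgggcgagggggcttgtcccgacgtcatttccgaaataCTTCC
Cox6a1, chr5:115348959-115349078, minus strand: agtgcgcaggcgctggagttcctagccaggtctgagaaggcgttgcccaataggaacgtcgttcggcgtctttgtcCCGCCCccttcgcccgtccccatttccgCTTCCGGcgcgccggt
The capitals in Cox7a2 and the first in Cox6a1 are the SP1 motif, and the other capitals in Cox6a1 and those in Cox8a, where the site runs past the start, are the ETS motif bound by GABP. In the full promoter window of 300 bases Cox8b held 2 CpG dinucleotides and Cox7a1 7, against 19 in Cox8a, 20 in Cox7a2 and 32 in Cox6a1. Among the 67 members with a promoter entry, taking the highest of a gene's promoters, Cox8b had the lowest count and Cox7a1 the third lowest.

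The peak lists, called list 1 and list 2 after the sample numbers, held 21496 and 38012 peaks. The deposited fold enrichment is the authors' ratio of ChIP signal over background at a peak. Fold and p-value together fix the number of ChIP reads at a summit, and by this number the lists rest on nearly the same reads. Of the 70 members whose best peaks overlapped, 33 had both summits on the same base, and the recovered reads of the 70 differed by a median of 1 read. The samples were therefore counted as 1, so paired values carry no replicate error. They show nearly the same reads called against a recovered background that differed between lists. It was 22.0 in list 1 and 5.0 in list 2 at Cox7a1, and 15.9 and 22.0 at Atp5a1, each list on its own scale. Differences in fold between genes have no test here.

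A gene counted as marked if both lists had a peak within 1000 bp of its RefSeq start or end coordinate, inside or outside the span. By this call 73 of the 85 members were marked (85.9%, 95% exact interval 76.6 to 92.5%), against 40.1% of all protein-coding genes on the same chromosomes. List 1 alone gave 74 members, with 40.6% of all genes, and list 2 alone 74, with 47.7% of all genes. Members are short genes (median span 7177 bp), and among other genes within the interquartile range of member lengths 39.4% were marked. Another gene's end lay within 2000 bp of an end in 53 members (62.4%, against 33.2% of all genes), and peaks there cannot be assigned to 1 gene. Of the 32 members without such a neighbour 71.9% were marked, against 30.7% of all genes without one. In bulk tissue, fewer cells with the mark and less mark per cell cannot be told apart.

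Complexes II and V were marked throughout and complex IV least often. The counts were 33 of 38 in complex I (86.8%, exact interval 71.9 to 95.6%), 4 of 4 in complex II (interval from 39.8%) and 8 of 9 in complex III (88.9%, 51.8 to 99.7%). Complex IV had 11 of 17 (64.7%, 38.3 to 85.8%) and complex V 17 of 17 (interval from 80.5%). The interval of complex IV overlaps those of the others and reaches the 40.1% of all genes, and the differences between complexes were not tested. With only the upper 50% of each list by fold, the shares were 44.7% for complex I, 25% for II, 55.6% for III and 41.2% for both IV and V, beside 12.6% of all genes, so the order of the complexes depended on this limit. Complex IV also had the most members without another gene's end within 2000 bp, 11 of 17 (64.7%), against 25% to 35.3% in the other complexes. Of those 11 members 54.5% were marked, against 66.7% to 100% in the other complexes and 30.7% of all genes without such a neighbour. A shared peak touched the gene span in 13 of 17 complex IV members (76.5%, against 44.6% of all genes). The part of neighbours in the complex IV share was not tested. Of the 6 unmarked complex IV members, 4 were isoform genes of restricted use, described below.

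**Figure D1:**
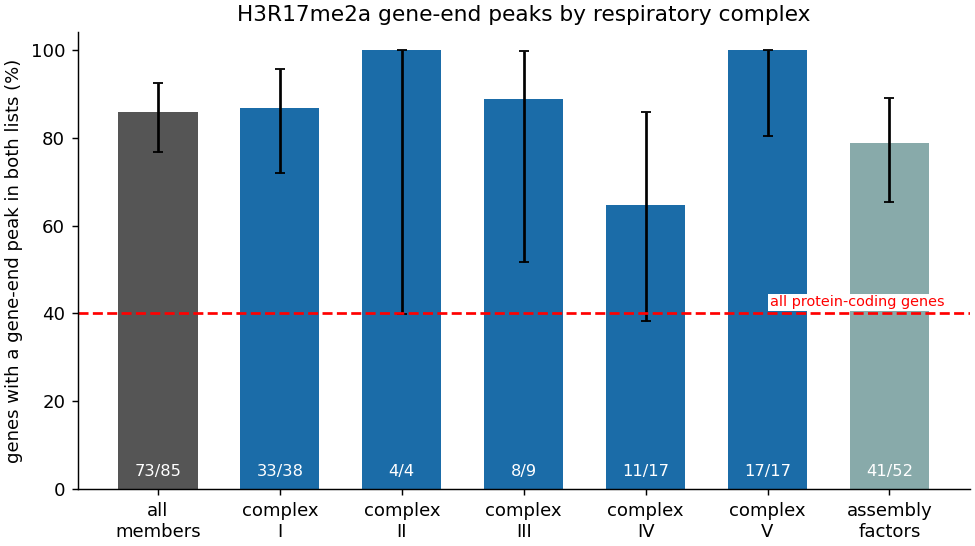
Bars give the percentage of genes with a gene-end peak in both lists for all 85 members, for each complex and for 52 assembly factors, with 95% exact binomial intervals (counting error only) and counts at the foot. The dashed line is the share of all protein-coding genes, 40.1%, which lies below every bar and within the intervals of complexes II and IV.

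In complex I, which takes electrons from NADH, all 7 core subunit genes that carry its redox and quinone chemistry were marked, each with another gene's end nearby. Among them, Ndufs8, an iron-sulfur subunit, had folds of 10.3 in list 1 and 6.08 in list 2, from 78 and 77 reads. The accessory subunits, which surround the core, were marked in 25 of 29. By summed rank of fold over both lists, 3 accessory genes led complex I, although in list 2 alone Ndufa13 (9.22) and Ndufb10 (8.17) were above Ndufa12. Ndufc2 (mm10 chromosome 7, 97400003 to 97407800) had folds of 13.9 and 11.2, with both summits on base 97400103 and 27 and 29 reads (exact Poisson 95% intervals 17.8 to 39.3 and 19.4 to 41.6). Ndufs5 followed with 10.4 and 8.84 and Ndufa12 with 13.5 and 7.87, the last at an end shared with the nuclear receptor gene Nr2c1. These high folds stood over a low recovered background, each list on its own scale. It was 1.01 and 0.685 at Ndufc2, 1.01 and 0.861 at Ndufs5 and 1.45 and 1.64 at Ndufa12. The Ndufc2 values are at the lowest found over all marked genes. Reads were 20 and 25 at Ndufs5 and 32 in each list at Ndufa12, beside member medians of 61 and 62.

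In complex II, which is also the succinate dehydrogenase of the tricarboxylic acid cycle, the 4 genes stayed within a narrow range. Folds were 4.11 and 4.89 at the flavoprotein gene Sdha, 3.47 and 2.79 at the iron-sulfur subunit gene Sdhb, 5.75 and 4.43 at the membrane anchor gene Sdhc and 4.70 and 5.22 at the other anchor, Sdhd. Sdhb had a second shared peak inside the gene with a higher fold, 9.26 and 6.05, whose summit lay 1698 bp from the nearest gene end.

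Complex III, the cytochrome bc1 complex, held the highest list 1 fold of all members. Uqcr10, a small accessory subunit (chromosome 11, 4701968 to 4704344), had folds of 17.7 and 6.28 from 36 and 39 reads. Its reads hardly differed between lists, whereas the recovered background was 1.09 in list 1 and 3.00 in list 2, each list on its own scale. Cyc1, the cytochrome c1 gene, had folds of 7.80 and 6.90, and Uqcrh, the hinge protein gene that binds cytochrome c1, 8.50 and 5.06. The Rieske iron-sulfur gene Uqcrfs1 had folds of 4.05 and 5.02 with many more reads, 165 and 169. At the core protein gene Uqcrc2 the list 2 peak was weak, with a fold of 2.12 and a −log10 q of 0.0507, so its q was above 0.05. The list 2 peak of Ndufs4, an accessory complex I gene, also had a q above 0.05.

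In complex IV, the cytochrome c oxidase that reduces oxygen, the leading members by summed rank of fold in both lists were Cox4i1, Cox6b1 and Cox6a2. Cox4i1 had folds of 6.38 and 5.64 from 101 and 103 reads, and Cox6b1 7.67 and 4.87 from 22 reads in each list. Outside the restricted isoforms, 11 of 13 members were marked, with list 1 folds between 2.91 and 7.67. Cox7a2l, which joins complexes III and IV into a supercomplex, had 5.88 and 4.67.

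In complex V, the ATP synthase, the F1 head genes Atp5a1, Atp5b, Atp5c1, Atp5d and Atp5e were all marked, as were the 12 genes of the membrane part and stalk. Atp5l, subunit g of the membrane part, led with 9.95 and 5.83 from a peak of 1529 and 1671 bp. Atp5o, the stalk protein that confers oligomycin sensitivity, had 7.63 and 4.92, and Atp5j2, subunit f, 8.18 and 4.79. Atp5b, the catalytic beta subunit gene, was an exception in position. Its promoter window held no peak of either list, and its gene-end peaks lay at the far end, 8104 and 9773 bp from the start, next to Baz2a.

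**Figure D2:**
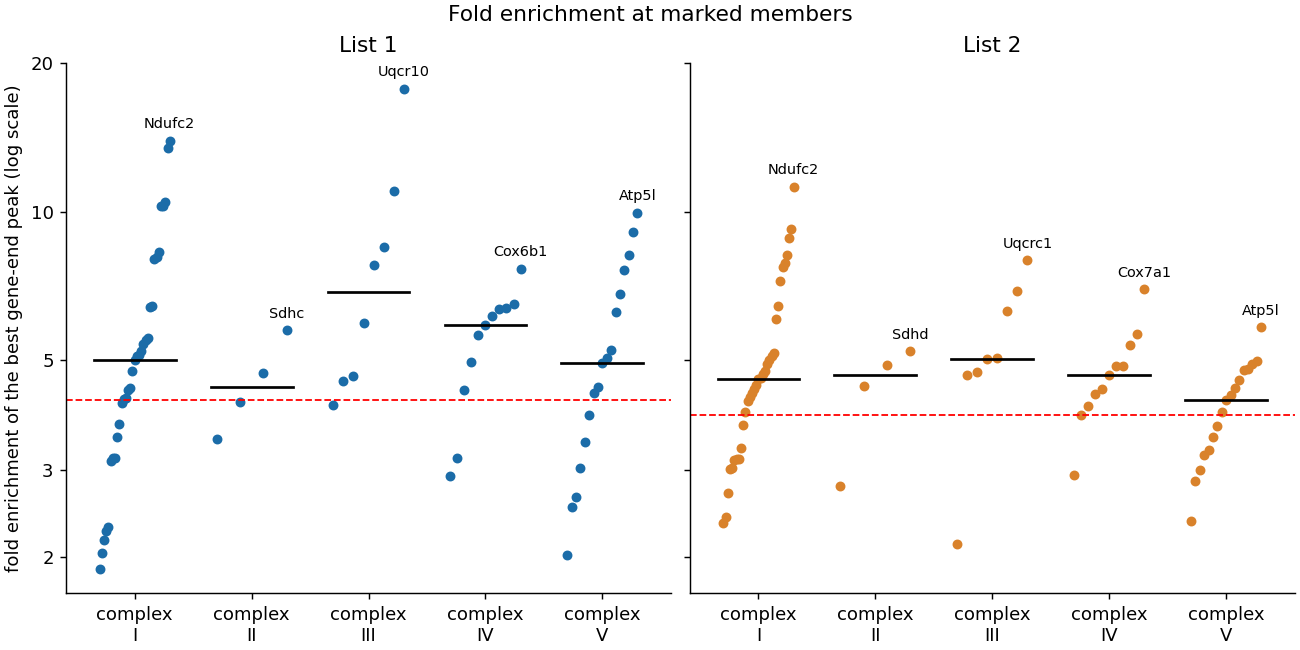
Each point is the authors' fold enrichment (log scale) of the best gene-end peak of 1 marked member, list 1 left and list 2 right, sorted within each complex, with black lines at the complex medians and a dashed line at the median of all marked genes (4.15 and 3.88). The highest member of each complex is named. Complex I spans the widest range in list 2, from 2.34 to 11.2.

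Over the 73 marked members the median fold was 5.05 in list 1 and 4.58 in list 2, beside 4.15 and 3.88 over all marked genes. At or above the median of all marked genes lay 51 of the 73 in list 1 and 52 in list 2. In both lists at once it was 44, and the share of all marked genes that did so was not computed. Median peak widths were 670 and 815 bp, beside 528 and 685 bp. The recovered reads had a median of 61 in list 1 (13 to 352) and 62 in list 2 (7 to 356), beside 51 and 54 over all marked genes.

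The order of members by reads differed from the order by fold. The most reads were found at Ndufa7 (352 and 356), an accessory complex I gene, Atp5g1 (291 and 293), which encodes the c subunit of the rotor, and Atp5pb (289 and 293), the peripheral stalk subunit b. Their folds were low, at 2.29 and 2.70 for Ndufa7, 2.01 and 3.50 for Atp5g1 and 2.64 and 2.37 for Atp5pb. The recovered background was high there, at 153 in list 1 and 81.0 in list 2 for Ndufa7 and 144 and 51.0 for Atp5g1. In list 2 each ChIP read counts as 0.618 when set against the background, so the backgrounds are not on 1 scale. A list 1 fold under 2.5 was found at 6 marked members (Ndufa2, Ndufa6, Ndufa7, Ndufb3, Ndufv1 and Atp5g1), which had 116 to 352 reads over a background of 54.0 to 153. All 6 had more reads and a higher background than the members' medians. List 1 has a lower limit on −log10 p, and a peak of low fold passes it only with many reads. This comparison with the medians is therefore largely set by that limit. As many reads also went with higher folds. In list 1, 6 members had at least 116 reads and a fold of 2.5 or more, from 2.64 at Atp5pb to 9.09 at Atp5a1.

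**Figure D3:**
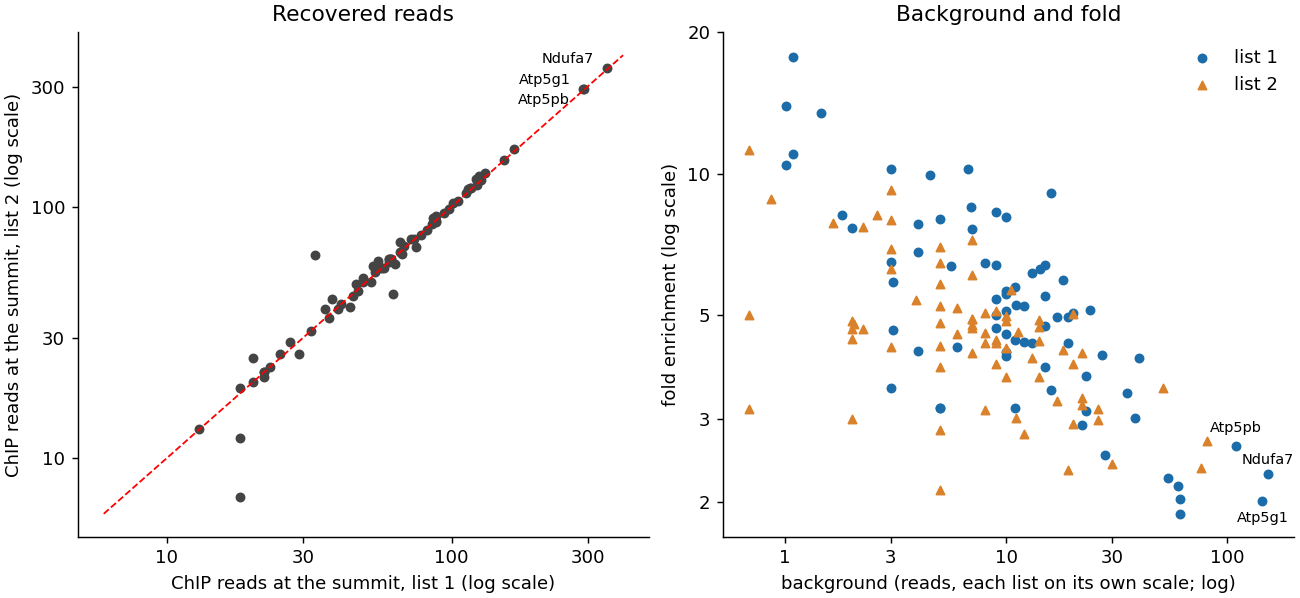
Left, recovered ChIP reads at the summit of the best gene-end peak in list 1 and list 2 for the 73 marked members (log axes, dashed line of equality). Right, fold enrichment against the recovered background, each list on its own scale. Reads lie close to the line for most members, and Ndufa7, Atp5g1 and Atp5pb combine the most reads with folds between 2.01 and 2.64 in list 1.

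The muscle isoforms of complex IV were marked at 3 of 3 genes, and so were 2 of their 3 widely used partners, beside 40.1% of all genes and 59.0% of genes with another gene's end nearby. The exact intervals, from 29.2% for the muscle isoforms and 9.43 to 99.2% for the partners, include both shares. Cox6a2, the heart and muscle form of subunit VIa (chromosome 7, 128205435 to 128206366), had folds of 6.35 and 5.38 from 41 reads in each list (exact Poisson interval 29.4 to 55.6). Its partner Cox6a1 had lower folds, 4.35 and 4.05, but more reads, 86 and 90 (68.8 to 106 in list 1). Cox8b, the muscle form of subunit VIII (chromosome 7, 140898942 to 140900446), had 6.15 and 4.87 from 85 reads in each list, with both summits at -3 bp from the start, within the sequence shown above. Cox8a had 4.95 and 2.93 from 98 reads in each list, so the reads of this pair lie within each other's counting intervals (67.9 to 105 and 79.6 to 119).

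Cox7a1, the heart and muscle form of subunit VIIa (chromosome 7, 30184171 to 30186030), had the most unequal folds of these isoform genes by ratio, 2.91 in list 1 and 6.97 in list 2, with 66 reads in both and summits on the same base at -113 bp, within the sequence shown above. The recovered background there was 22.0 in list 1 and 5.0 in list 2, each list on its own scale. Its partner Cox7a2 was unmarked at its gene ends and held no peak in the promoter window. The promoter table places its start at base 79759853 of chromosome 9, inside the span and 4612 bp from the nearest end, and a shared peak of 3.87 and 2.63 (79759373 to 79759798 in list 1) came to within 55 bp of it on the downstream side. The ends of Cox6a2, Cox7a1 and Cox8b each lie near another gene's (Itgad, Capns1 and Psmd13), while those of Cox6a1, Cox7a2 and Cox8a do not, so the muscle isoform peaks cannot be assigned to 1 gene.

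Of the remaining isoforms of restricted use, 0 of 5 genes were marked (exact interval to 52.2%, and 3 counts of 5 would be 60%), and the interval includes the 40.1% of all genes. These are Cox4i2, known from lung, Cox6b2, Cox7b2 and Cox8c, known from testis, and Ndufa4l2, a hypoxia-induced relative of Ndufa4. Their nearest list 1 peaks lay between 5084 bp (Ndufa4l2) and 619815 bp (Cox7b2) from the gene span, and a list 2 peak of fold 3.16 lay inside Cox4i2. Of their widely used counterparts, Cox4i1, Cox6b1 and Ndufa4 were all marked, Ndufa4 with 4.09 and 4.29. Ndufa4 keeps its complex I symbol although the protein is now placed in complex IV.

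The 3 genes for subunit c of the ATP synthase rotor, which differ in the import signal and give the same mature protein, were all marked near the start. Atp5g1 had 291 and 293 reads, Atp5g2 88 and 87 and Atp5g3 61 and 62, and the exact Poisson intervals of Atp5g1 (259 to 326 in list 1) and Atp5g2 (70.6 to 108) do not overlap. Atp5g1 had the lowest fold in both lists, with 2.01 and 3.50 at Atp5g1, 4.95 and 4.98 at Atp5g2 and 3.88 and 3.93 at Atp5g3.

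**Figure D4:**
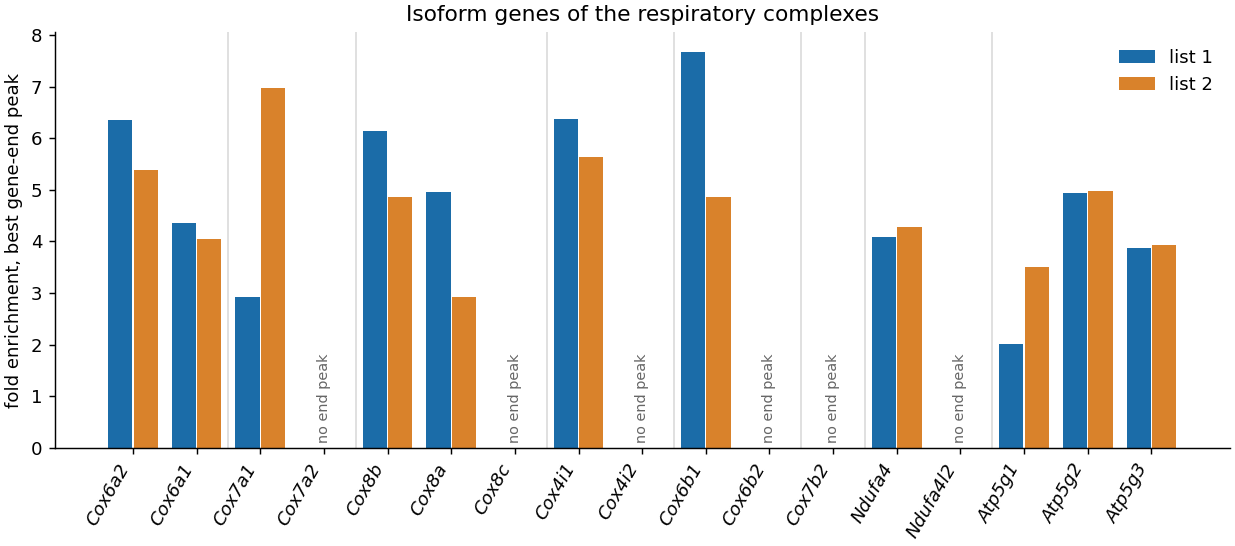
Bars give the authors' fold enrichment of the best gene-end peak in list 1 and list 2 for the isoform genes, with grey lines between subunits, muscle isoforms first in the 3 leftmost groups, and no bar where neither list had a gene-end peak. Cox4i2, Cox6b2, Cox7b2, Cox8c and Ndufa4l2 have none, and Cox7a1 has 2.91 and 6.97.

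The unmarked members outside the restricted isoforms were Cox7a2, Cox5a, Ndufa5, Ndufc1, Ndufb4b, Ndufb4c and Uqcr11. Cox5a, a matrix-side complex IV subunit, is like Cox7a2: its listed start at base 57521232 of chromosome 9 lies 3904 bp inside the span, and a shared peak of 1375 bp with folds of 3.09 and 3.17 covered it. Ndufa5 had a gene-end peak in list 2 alone (4.25) and Ndufc1 in list 1 alone (2.00, 49 reads). Ndufb4b and Ndufb4c, short genes of 471 and 485 bp named after Ndufb4, had no peak of either list nearer than 15779 bp, while Ndufb4 itself had 4.75 and 4.37. Uqcr11, a small subunit of complex III, had its nearest peak of either list 3149 bp from its span.

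Peaks sat at the start of the genes. The promoter table gives a strand and start for 67 members, and 56 of them (83.6%) had a peak of each list over the 250 bases before to 50 after a start, against 38.7% of all genes with an entry. Of the 59 marked members with a start, 52 had the list 1 summit within 300 bp of it (88.1%, against 73.5% of all marked genes) and 50 the list 2 summit. The median distance without sign was 80 bp in list 1, beside 124 bp over all marked genes. In list 1, 27 of 59 summits (45.8%) lay downstream of the start, near the 48.1% of all marked genes with a start.

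At some members the best peak lay far from the start. Positions before a start are negative. At Ndufa13, which has ends of Tssk6 and Yjefn3 nearby, both summits lay at -1201 bp. The best peak of Ndufb6 lay 9684 and 9683 bp downstream, although its promoter window also held a peak of each list. At Ndufs4, the longest complex I gene (100300 bp), the best list 1 peak lay 240 bp and the best list 2 peak 99734 bp downstream of the start. These positions were -190 and 9400 bp at Ndufs3, and 3934 and -3009 bp at Atp5d. The promoter windows of Ndufs4, Ndufs3 and Atp5d also held a peak of each list.

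**Figure D5:**
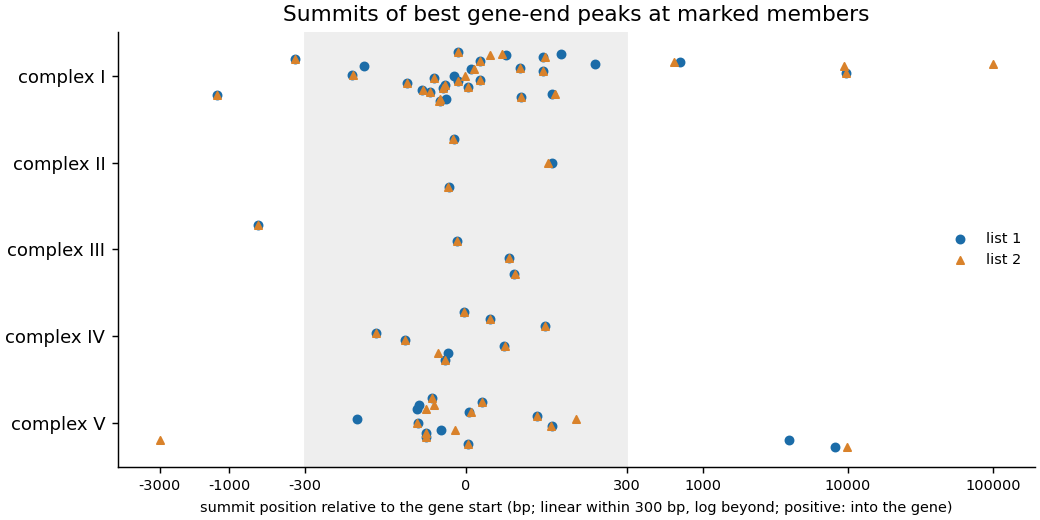
Points give the position of the best gene-end peak's summit relative to the nearest listed start for the 59 marked members with one, by complex, list 1 as circles and list 2 as triangles (linear within 300 bp, shaded, and logarithmic beyond, positive into the gene). In list 1, 52 of 59 lie in the shaded range, and Atp5b, Ndufb6 and the list 2 peaks of Ndufs3 and Ndufs4 lie at 8104 bp or more.

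Peaks inside genes brought in 2 members without a call at an end, Cox5a and Cox7a2. A shared peak, that is a list 1 peak overlapping a list 2 peak, touched the span of 74 members (87.1%), against 44.6% of all genes. Counting only peaks outside the gene-end windows, 12 shared peaks lay in 10 members, among them Ndufc2 (6.47 and 4.21), Ndufs4 (2.89 and 3.29) and Atp5l (5.67 and 3.22), with more than 1 in Atp5a1 and Atp5d. The share of all genes with such a peak was not computed, so this count has no reference value. Of these peaks, the highest in list 1 was in Atp5d, the F1 delta subunit gene, with folds of 9.88 and 4.64. It covered the listed starts of Atp5d, bases 80142275 and 80142315 of chromosome 10, which lie inside the span. In list 2 the peaks in Sdhb (6.05) and in Ndufs7 (9.12 and 5.76) were above it. Where only the summit had to lie in the span, the share fell to 49.4% of members and 34.0% of all genes.

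Neighbours within 2000 bp included other mitochondrial genes. Ndufb5 lies beside Mrpl47 and Ndufs6 beside Mrpl36, both mitochondrial ribosomal protein genes, Uqcrb beside Mterf3, a mitochondrial transcription regulator gene, and Sdhd beside Timm8b, an import factor gene. Atp5j, the coupling factor 6 gene, shares an end region with Gabpa, which encodes the DNA-binding subunit of GABP, under a peak of 2146 and 2132 bp with folds of 6.28 and 3.28.

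The promoters were searched on both strands for letters of known regulators. NRF1 sites are shown first because NRF1 is the best known regulator of these genes, with up to 20 bases on either side, the motif in capitals, 5′ to 3′ in mm10 (GRCm38.p6), RefSeq.
Ndufa11, chr17:56717682-56717731, plus strand: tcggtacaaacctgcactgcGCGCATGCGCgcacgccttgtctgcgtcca
Cox6a1, chr5:115349091-115349140, minus strand: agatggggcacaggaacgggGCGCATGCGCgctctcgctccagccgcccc
Atp5g2, chr15:102671060-102671109, minus strand: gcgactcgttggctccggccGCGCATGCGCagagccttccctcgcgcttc
Atp5k, chr5:108434420-108434469, minus strand: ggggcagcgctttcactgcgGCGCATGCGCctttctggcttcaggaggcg
The NRF1 letters, the 10 capitals of each line, read the same on both strands and were present in 5 of 67 members (7.46%), the ones shown and Uqcrc1, where the site lies downstream of the start. They were present in 1.49% of all 16457 genes with a promoter entry and in 2.90% of marked ones. The summits of the 4 genes shown lay between 47 bp before and 6 bp after the start in list 1, with folds from 3.13 to 4.95.

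The ERR letters AAGGTCA were found in 8 members (11.9%), against 4.69% of all genes and 3.67% of marked genes. The 5 sites upstream of a start are shown the same way; capitals that begin with TG are the motif on the opposite strand, and the Atp5l line ends at the start.
Ndufb2, chr6:39592364-39592410, plus strand: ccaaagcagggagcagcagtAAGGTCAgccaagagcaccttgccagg
Ndufb4, chr16:37654397-37654443, minus strand: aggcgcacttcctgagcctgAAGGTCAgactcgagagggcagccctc
Ndufs5, chr4:123718388-123718434, minus strand: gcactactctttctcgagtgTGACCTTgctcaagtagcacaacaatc
Atp5g3, chr2:73911352-73911398, minus strand: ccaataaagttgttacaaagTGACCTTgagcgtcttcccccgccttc
Atp5l, chr9:44920743-44920775, minus strand: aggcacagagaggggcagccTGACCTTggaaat
The others, in Sdhd, Atp5e and Atp5k, lie downstream of the start. All 12 members with NRF1 or ERR letters were marked, beside 59 of the 67 members with a promoter entry and 6732 of 16457 genes with one. The marked share of all genes with NRF1 or ERR letters was not computed. Atp5k, subunit e of the ATP synthase, held both.

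Other letters were found as follows. The ETS letters CCGGAAG were present in 25.4% of members, 13.3% of all genes and 22.3% of marked genes, and the YY1 letters AAGATGG in 16.4%, 7.26% and 9.0%. The SP1 letters GGGCGG were less common in members (40.3%) than in all genes (50.3%) and marked genes (71.5%). The MEF2 consensus was found in Cox5b alone (1.49%, against 4.11% of all genes and 3.70% of marked genes). TATAAA was found in 11.9% of members, 15.0% of all genes and 7.96% of marked genes. The median number of CpG dinucleotides was 19 in members, 15 in all genes and 24 in marked genes, counted in the promoter of each gene with the most. Sites of different motifs overlapped once, in Ndufs3. These shares describe letters in a window, were not tested and do not show binding.

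Assembly factors, which build the complexes without staying in them, and cytochrome c were read from a list of 52 genes. A gene-end peak in both lists was found at 41 (78.8%, exact interval 65.3 to 88.9%), beside 40.1% of all genes, and list 2 alone had one at 92.3%, beside 47.7%. By complex the counts in both lists were 20 of 23 for complex IV, 11 of 15 for complex I, 5 of 6 for complex III, 2 of 3 for complex V and 2 of 4 for complex II. The interval overlaps that of the subunit genes. The leading ones were Tmem186 (12.0 and 14.8), a complex I factor, Lrpprc (16.3 and 10.7), which stabilises mitochondrial mRNAs, and Ndufaf6 (12.4 and 9.03). Cytochrome c itself, Cycs, had 2.67 and 3.77. Of the 11 unmarked factors, 7 had a peak in list 2 alone (Sdhaf3, Sdhaf4, Coa3, Coa4, Cmc1, Ndufaf8 and Uqcc3), and Ndufaf1, Ndufaf2, Acad9 and Atpaf2 had no gene-end peak in either list.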

How the data were processed

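H3R17me2a ChIP-seq was analysed in 2 samples of 1 group. FastQC, Bowtie2 and mm10 are named in the submitters' processing notes; no peak caller, control or filter is given in the sources used. A headerless narrow peak list was deposited per sample. Judged by its layout and values, the deposited fold is a linear ratio over background, and −log10 values are deposited for p and q. The deposited score and summit offset are the authors' as well. No total depth is given.

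Overlap meant at least 1 bp and coordinates are 1-based. Reads at a summit were recovered as the whole number that fits fold = (reads + 1) / (background + 1) and p as the upper Poisson tail, within 0.001 on the −log10 scale. In list 2, the reads were multiplied by 0.618, the largest factor up to 1 that matched the p-values; dividing it by 2 fits as well but gives even numbers of reads at 300 of 300 peaks. This matched 99.9% of 3000 peaks in each list, and 0.867% and 2.57% with p-values exchanged. The call and the recovery were tested on simulated data. Genes, starts and promoter sequences came from RefSeq (GRCm38.p6, the coordinates of mm10). Of the members, 67 had a promoter entry.

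Members, gene lists and motifs were chosen with earlier results of these data known, so no gene set was tested. Every member could be named, except that 1 is not reported individually here; full values were given for isoforms, for the 3 members of each complex with the lowest summed rank by fold, for unmarked members, for inner peaks and for the 3 leading assembly factors, and members singled out by reads or position were chosen after their values were seen. Isoform proteins could not be compared, as no protein sequence was used here. Intervals are 95% exact and cover counting error only. Alternatives changed the lists used, thresholds, window, overlap and neighbours. Python 3.11.15, pandas 2.3.3, numpy 2.4.6 and scipy 1.17.1 were used.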

Additional observations from a re-analysis of the deposited data

Results flagged for a closer look

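List 1 also held 1 peak on the mitochondrial genome, which encodes other respiratory chain subunits and lies outside the gene rule. It spans bases 15764 to 16004, where the gene table lists no gene, with a fold of 1.53 and a −log10 p of 33.4. List 2 held none. It was set apart because it lies in data that no comparison used, and no control sample was available to compare it with.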

How the results depend on the processing

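The share of marked members stayed within 1.5 times its value of 85.9% in all alternatives but 1. It was 87.1% with either list alone, 81.2% at a minimum −log10 p of 5 (34.2% of all genes), 82.4% at a minimum −log10 q of 2, 83.5% with list 2 cut to as many peaks as list 1, and 83.6% in the promoter window, an alternative chosen after seeing the data. With the upper 50% of each list by fold it fell to 43.5% (37 of 85), beside 12.6% of all genes and 34.6% of assembly factors. By complex it was then 44.7% for I, 25% for II, 55.6% for III, 41.2% for IV and 41.2% for V, so the order of the complexes did not hold. Body peaks fell to 41.2% of members and 19.5% of all genes in that setting, and to 49.4% of members where the summit had to lie in the span. Of the 73 marked members, 36 were marked under all 9 alternatives run over every member and 67 under all but the upper 50% by fold. Uqcrc2 lost its call under 4 of these, and Ndufs4 and Atp5g3 under 3 each. Among the muscle isoforms, Cox6a2 and Cox8b kept their calls in the upper 50% by fold and Cox7a1 did not. No paired analysis was possible because there is 1 group.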
